A study of Rattus norvegicus with 8 samples.

Results

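The diaphragm, the sheet of muscle that drives inspiration, is covered on its thoracic and abdominal faces by a serosal lining, and 8 genes that mark the mesothelial cells of such a lining are described here in rat diaphragm libraries: Msln, Upk3b, Wt1, Krt8, Krt18, Krt19, C3 and Slpi. They were taken as a list of gene symbols and not by a rule on their values, though earlier results of these data were known. Of the 8, 7 had a row among the 17055 genes of the count table. Upk3b was not analysed here, and no value of the related gene Upk3bl was put in its place. The 8 libraries came from 4 Sprague-Dawley rats 16 weeks after a myocardial infarction (MI) made by tying off the left anterior descending coronary artery, replicates 1 to 4, and 4 Sham rats 16 weeks after the same chest operation without the tie, replicates 5 to 8. Each library was made from RNA of snap-frozen diaphragm and is labelled as 1 individual. The labels do not say which region of the muscle was taken, whether its linings were trimmed, or the sex and age of the animals. Both operations opened the left chest and the pericardium, which the Sham rats share with the MI rats.

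Mesothelial cells form a single flat layer over the pleura and the peritoneum. They resemble an epithelium in holding simple keratins, yet they arise from mesoderm and keep the transcription factor Wt1. They secrete lubricating and protective proteins into the serosal fluid, among them complement factors and protease inhibitors. In bulk samples such as these, fewer mesothelial cells and less RNA per cell cannot be told apart.

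The libraries held 7941402 to 24967251 counts, and a floor of 3 counts was worth 0.120 to 0.378 counts per 1000000 (CPM), which covers counting error only. Levels below are CPM after TMM scaling and are not divided by transcript length, so they compare animals within a gene and not genes with each other. The libraries were of skeletal muscle: Acta1 (skeletal actin) and Ckm (muscle creatine kinase) were at 41240 to 52600 and 25490 to 39880 CPM in every library. These genes do not tell diaphragm from other skeletal muscle. All 7 members with a row passed the filter on low counts, with 14 or more counts in each library for 6 of them and 6 or more for Slpi.

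The level of the lining genes differed several-fold from animal to animal, and most of all between MI replicate 2 and the rest. In MI replicate 2, 6 of the 7 members had their lowest value of the 8 animals, against 10.3% of the 10522 genes tested that were lowest in this library, and the 7th, Wt1, was second lowest. An index of the lining, the mean over members of log2 CPM centred on each gene's mean over the 8 animals, was 0.41, -1.88, -0.31 and 0.90 in MI replicates 1 to 4, against -0.22, -0.18, 0.54 and 0.73 in Sham replicates 5 to 8. From the lowest to the highest animal, both of them MI, this was a 6.85-fold range. Without MI replicate 2 the other 7 animals spanned a 2.31-fold range. In Sham replicate 7 the members stood apart, with Slpi at 2.33 and C3 at 1.02 on the same centred scale. Wt1 was there at 0.29, Msln at 0.20, Krt8 at 0.13, Krt19 at 0.048 and Krt18 at -0.20. MI replicate 2 was not a shallow library, with 15944048 counts.

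**Figure D1:**
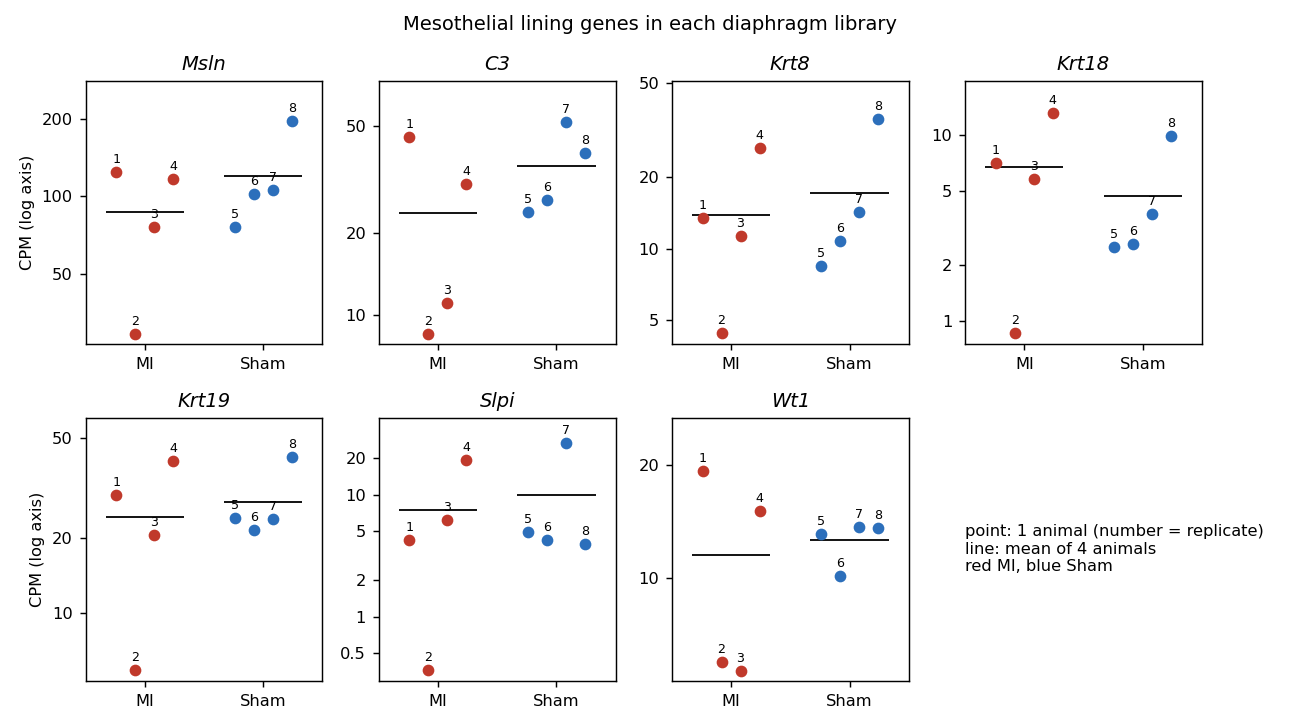
CPM (log axis) of the 7 members in each library, with MI (red) left of Sham (blue), 1 point per animal numbered by replicate and a line at the mean of 4 animals. MI replicate 2 is lowest in every panel except that of Wt1, where MI replicate 3 at 5.67 CPM lies just under it at 5.99 CPM.

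Msln encodes mesothelin, a glycoprotein anchored to the surface of mesothelial cells. It had 125, 29.2, 75.7 and 116 CPM in MI replicates 1 to 4, against 76.0, 102, 106 and 197 CPM in Sham replicates 5 to 8. The groups overlapped, with MI replicate 2 below all other animals and Sham replicate 8 above them. The lowest of these values rested on 478 counts, for which the exact 95% Poisson interval is 436 to 523 counts. From the lowest to the highest animal Msln differed 6.73-fold.

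Wt1 encodes the zinc finger transcription factor of the mesothelium, known also from kidney podocytes. It had 19.4, 5.99, 5.67 and 15.1 CPM in MI replicates 1 to 4, against 13.1, 10.2, 13.7 and 13.7 CPM in Sham replicates 5 to 8. Both extremes were MI animals, with replicates 2 and 3 below every Sham value and replicates 1 and 4 above them. The SD was 6.81 CPM in MI and 1.69 CPM in Sham (n = 4 each), and this difference in spread was not tested.

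Keratins build intermediate filaments from pairs of a type II and a type I chain. Krt8, the type II chain of simple epithelia and mesothelium, had 13.4, 4.40, 11.3 and 26.6 CPM in MI replicates 1 to 4, against 8.49, 10.8, 14.3 and 35.3 CPM in Sham replicates 5 to 8. Its usual type I partner Krt18 had 7.01, 0.855, 5.75 and 13.0 CPM in MI, against 2.49, 2.57, 3.74 and 9.84 CPM in Sham. In both genes MI replicate 4 and Sham replicate 8 stood highest. Krt19, another type I chain, had 29.8, 5.93, 20.5 and 40.8 CPM in MI, against 24.1, 21.6, 23.75 and 42.2 CPM in Sham. Here 3 Sham animals lay within 21.6 to 24.1 CPM, while the MI animals covered the whole range of both groups apart from the top value of Sham replicate 8.

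Krt8 and Krt18 are neighbours on chromosome 7 in RefSeq's GRCr8 assembly, and their log2 CPM moved together over the 8 animals (Pearson r of 0.92). Krt8 moved about as closely with Msln (0.91) and Krt19 (0.90), both on chromosome 10. Stretches of 175 bases from before the annotated starts are shown for Krt8 and Krt18. They are also shown for C3 and Wt1, the closest pair outside the keratins and Msln. Each is given 5′ to 3′ on the strand of its gene, from the RefSeq promoter table of GRCr8, and stops 75 bases short of the annotated start. Of the 8 genes, 5 had a promoter in that table. The Krt8 stretch lies at chr7:135010415-135010589 on the minus strand, that of Krt18 at chr7:135035918-135036092 on the plus strand, that of C3 at chr9:2201415-2201589 on the minus strand and that of Wt1 at chr3:112021759-112021933 on the plus strand. Capitals mark matches, on either strand, to 1 of 5 short motifs.
Krt8: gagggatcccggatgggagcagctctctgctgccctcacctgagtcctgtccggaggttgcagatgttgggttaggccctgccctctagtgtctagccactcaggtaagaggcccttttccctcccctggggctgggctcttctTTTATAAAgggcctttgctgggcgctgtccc
Krt18: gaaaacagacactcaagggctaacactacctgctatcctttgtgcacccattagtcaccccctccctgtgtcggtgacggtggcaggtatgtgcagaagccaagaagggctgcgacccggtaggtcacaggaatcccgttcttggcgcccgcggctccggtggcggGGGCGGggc
C3: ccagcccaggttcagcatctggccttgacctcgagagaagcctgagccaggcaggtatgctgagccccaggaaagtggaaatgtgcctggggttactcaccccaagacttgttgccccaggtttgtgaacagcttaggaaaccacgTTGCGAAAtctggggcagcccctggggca
Wt1: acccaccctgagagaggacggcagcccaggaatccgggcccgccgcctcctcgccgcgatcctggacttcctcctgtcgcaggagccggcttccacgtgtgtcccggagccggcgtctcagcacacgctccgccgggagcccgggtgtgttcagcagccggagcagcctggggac

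Each stretch was searched on both strands for the TATA box, spelled TATAAA, which 8.79% of 33469 promoter stretches of this length hold. Krt8 held it on both strands in overlapping matches that began 106 and 104 bases before the annotated start. The 75 bases next to the start were not searched, so a TATA box there would have been missed in any of these genes. The GC box, spelled GGGCGG and held by 20.1% of stretches, was found in Krt18. The C/EBP motif, spelled TTGCNNAA and held by 6.82%, was found in C3. The CCAAT box (25.2%) and the AP-1 motif, spelled TGANTCA (4.54%), were in none of the 4 stretches, and Wt1 held none of the 5 motifs. These are matches of letters only, and neither pair of genes shared a motif in these windows.

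C3 encodes the central component of complement, which liver, macrophages and adipose tissue also make. It had 45.3, 8.49, 11.0 and 30.5 CPM in MI replicates 1 to 4, against 23.9, 26.6, 51.55 and 39.8 CPM in Sham replicates 5 to 8. MI replicates 2 and 3 lay below all other animals, as for Wt1. Slpi encodes a secreted inhibitor of neutrophil elastase made by many epithelia and by leukocytes. It had 4.27, 0.367, 6.26 and 19.2 CPM in MI, against 4.90, 4.24, 26.7 and 3.93 CPM in Sham. Sham replicate 7 and MI replicate 4 stood far above the rest, and MI replicate 2 far below, a 72.8-fold range in all. The value in MI replicate 2 came from 6 counts, with an exact 95% Poisson interval of 2.2 to 13.1 counts.

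The animals with high Slpi were not simply those with high Msln. Per count of Msln, Slpi had 0.0342, 0.01255, 0.0827 and 0.165 counts in MI replicates 1 to 4, against 0.0645, 0.0417, 0.252 and 0.0200 counts in Sham replicates 5 to 8. Sham replicate 8, the highest animal for Msln, thus had the second lowest of these ratios. By their mean, the 8 macrophage markers of a separate list stood highest in the same pair of animals as Slpi. Taken singly, Adgre1, C1qa, C1qb, Mrc1 and Lyz2 were highest in this pair. Cd68 was higher in MI replicate 3 than in MI replicate 4, and Csf1r and Cd163 were higher in Sham replicate 6 than in MI replicate 4. The mean deviation of the list from the 8-animal mean, in log2 CPM, was 0.90 in Sham replicate 7 and 0.37 in MI replicate 4. No other library exceeded 0.089. This was not particular to macrophage markers. By the mean of each list, the same pair stood highest for adipocyte markers (1.13 in MI replicate 4, 0.47 in Sham replicate 7) and complement genes (0.38 and 0.33). It also did so for the 2 tested hepatocyte markers (0.66 and 0.92). The part of any of these cells in the Slpi values was not tested. The summed level of the macrophage list was 124.0 to 257 CPM in MI and 136 to 336 CPM in Sham.

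The spread of the members between animals of the same group was wide beside that of other genes. The pooled within-group SD of log2 CPM ranged from 0.65 for Wt1 to 1.81 for Slpi, where the median of all tested genes was 0.20. Between 95.3% and 99.9% of tested genes had a smaller SD than a given member, and 87.8% (Krt19) to 99.6% (Slpi) had one when MI replicate 2 was left out. Without that animal the SD was 0.46 for Krt19, 0.51 for Msln, 0.605 for Wt1, 0.77 for C3, 0.79 for Krt18, 0.80 for Krt8 and 1.23 for Slpi. The biological coefficient of variation estimated by edgeR was 37.9% for Wt1, 46.1% for Msln, 50.5% for Krt19, 53.1% for C3, 58.9% for Krt8, 70.5% for Krt18 and 101% for Slpi. The trend for genes of the same abundance lay between 13.6% and 21.9%. Each member thus exceeded its trend by 2.06 to 5.17 times, against a median of 0.824 times over all genes tested.

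The comparison of MI with Sham asks whether the infarction changed the diaphragm, here in its lining genes. None of the 7 members passed edgeR's quasi-likelihood test (adjusted p of 0.773 to 0.931), and 0% of the 10522 genes tested passed at an adjusted p under 0.05. At an unadjusted p under 0.05, which 8.14% of tested genes reached, the members numbered 0, with a smallest p of 0.328 for C3. DESeq2 called 14 genes, 0.133% of those it tested, and 0 members. No member had groups that did not overlap, a pattern shown by 4.55% of tested genes.

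Lack of a call did not show that the lining was alike in MI and Sham, since the intervals were wide. The log2 fold change, MI over Sham, of Msln was -0.47 ± 0.48 (SE; 95% interval -1.59 to 0.65), with means of 86.5 ± 43.8 CPM in MI and 120.0 ± 52.7 CPM in Sham (SD, n = 4 each). C3 was at -0.58 (-1.88 to 0.71), Krt8 at -0.30 (-1.75 to 1.15), Krt19 at -0.21 (-1.43 to 1.02), Wt1 at -0.14 (-1.03 to 0.75) and Slpi at -0.54 (-3.04 to 1.96). Krt18 alone lay above 0, at 0.55 (-1.18 to 2.28), with means of 6.66 ± 5.0 CPM in MI and 4.66 ± 3.5 CPM in Sham. The median over the 7 members was -0.30, against -0.0070 over all genes tested.

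Single animals set the sign of several of these differences. Without MI replicate 2 the log2 fold change was 0.0069 for Krt8, 0.13 for Krt19 and 0.080 for Wt1. Without Sham replicate 8 it was 0.28 for Krt8 and 0.050 for Krt19, without MI replicate 3 it was 0.092 for Wt1, and without Sham replicate 7 it was 0.71 for Slpi. The index averaged -0.22 ± 1.21 in MI and 0.22 ± 0.49 in Sham (SD, n = 4 each), a difference of -0.44 that became 0.11 without MI replicate 2. The animal numbers in the labels fall in 2 ranges, and within them the difference was -0.51 in the lower range, where MI replicates 1 and 2 met Sham replicate 5 alone, and -0.066 in the upper range.

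**Figure D2:**
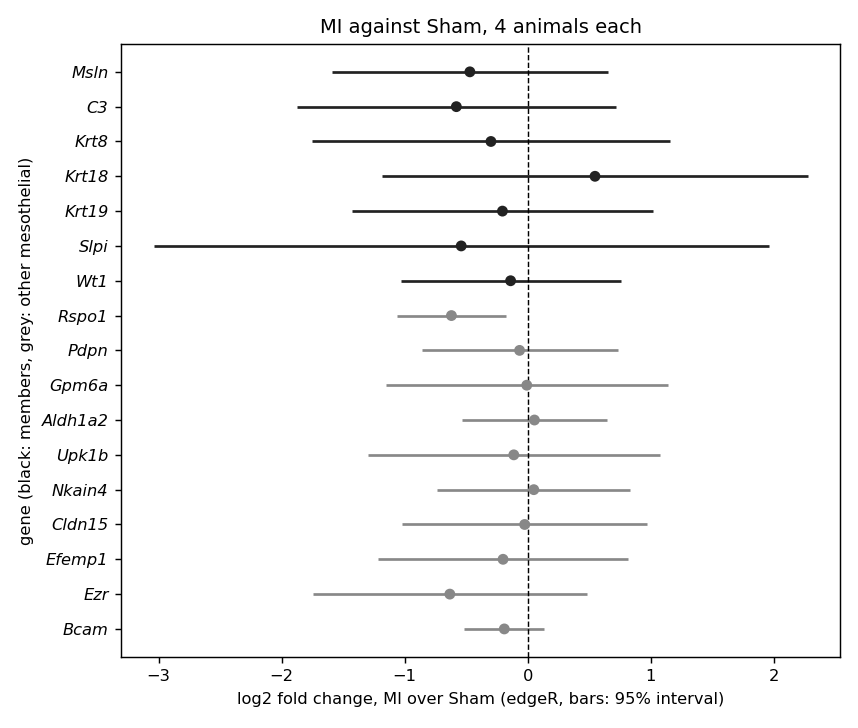
The log2 fold change of each gene, MI over Sham (x axis), with its 95% interval as a bar, for the 7 members (black) and 10 other mesothelial genes (grey). Every member's interval spans 0, and Slpi has the widest, from -3.04 to 1.96.

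The members moved together over the animals. All 21 pairs had a positive Pearson correlation of log2 CPM over the 8 animals, from 0.52 to 0.95 with a median of 0.73. By exact two-sided permutation over the 40320 orders, 9 pairs passed at an adjusted p under 0.05 for Pearson's r and 2 pairs for Spearman's rho, both adjusted over the 21 pairs. Each animal is 1 point, and all genes of a library share its composition and depth.

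The closest pairs joined Msln and the keratins. For Msln with Krt19, r was 0.95 (exact permutation p = 0.00156, adjusted 0.00802) and rho was 0.90 (exact p = 0.00456, adjusted 0.0479). For Krt8 with Krt18, r was 0.92 (exact p = 0.00127, adjusted 0.00802) and rho was 0.90 (exact p = 0.00456, adjusted 0.0479). With the 2 animals farthest from the median of the first gene left out, MI replicate 2 and Sham replicate 8 in both cases, r was 0.65 for Msln with Krt19 and 0.86 for Krt8 with Krt18. C3 and Wt1 formed another close pair, with r of 0.92 (exact p = 0.00556, adjusted 0.0167) and rho of 0.83 (exact p = 0.0154, adjusted 0.0646). Without MI replicates 2 and 3, that r was 0.55.

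The correlations were lower without MI replicate 2. The median r of the 21 pairs was 0.50 after leaving out the 2 farthest animals of each pair, and 0.47 without MI replicate 2. Over the 7 other animals, r stayed at 0.80 to 0.90 among Msln, Krt8 and Krt19 and at 0.88 for C3 with Wt1. It was 0.15 for C3 with Krt18 and -0.11 for Msln with Slpi. These 7-animal values are descriptions and were not tested, and neither range of animal numbers holds the 6 animals needed for a value of its own.

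**Figure D3:**
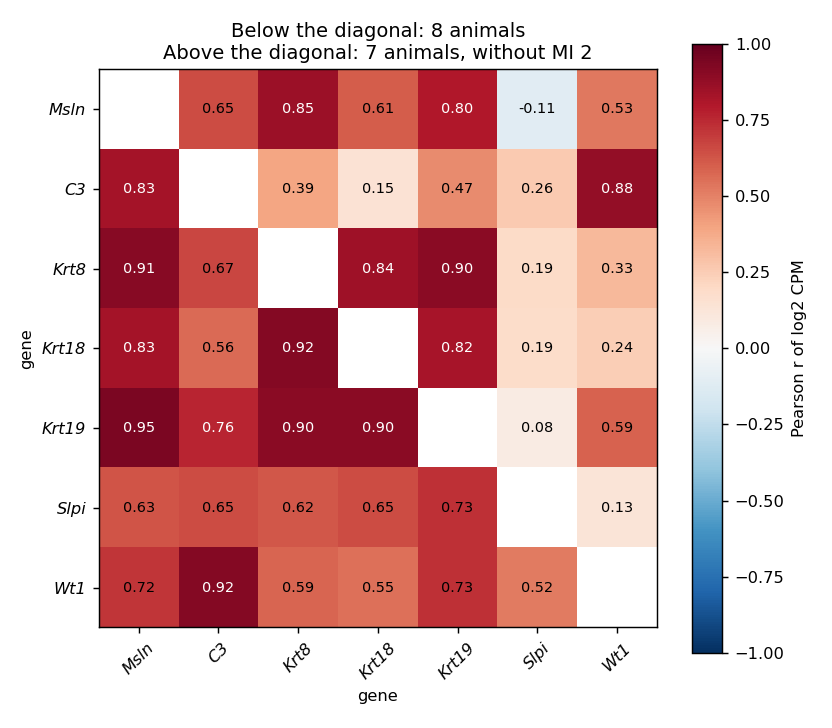
Pearson r of log2 CPM for each pair of members, over 8 animals below the diagonal and over the 7 animals other than MI replicate 2 above it. Msln and the keratins keep values from 0.61 to 0.90 above the diagonal, while the pairs of Slpi lie between -0.11 and 0.26.

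Ratios within a library, which do not depend on how libraries are scaled, separated the members further. The ratio of Msln to Krt19 counts was 4.19, 4.93, 3.70 and 2.85 in MI replicates 1 to 4, against 3.16, 4.71, 4.45 and 4.66 in Sham replicates 5 to 8. This ratio varied 1.73-fold, while Msln varied 6.73-fold and Krt19 7.12-fold. The ratio of Krt8 to Krt18 counts was 1.91, 5.14, 1.97 and 2.04 in MI, against 3.41, 4.20, 3.81 and 3.59 in Sham. In 3 MI animals it lay below all 4 Sham animals, and in MI replicate 2, where Krt18 had 14 counts, it lay above them. This pair was singled out after its values were seen and was not tested.

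Genes outside the 7 members that are known from mesothelium largely followed the same animals, though not in Sham replicate 7. Of 15 in a further list, 13 had a row and 10 passed the filter, and 9 of these 10 were lowest in MI replicate 2. Their median r to the index of the members was 0.85 over 8 animals and 0.69 without MI replicate 2, where the medians over all tested genes were -0.031 and 0.0046. Their mean deviation, in log2 CPM, was 0.36, -1.03, -0.25 and 0.37 in MI replicates 1 to 4. It was -0.078, -0.086, 0.027 and 0.68 in Sham replicates 5 to 8. Sham replicate 7 thus stood near the 8-animal mean here, where its index was 0.545. Gpm6a, a neuronal and mesothelial membrane protein, had 200.2, 36.8, 88.1 and 168 CPM in MI replicates 1 to 4, against 120.0, 109.6, 95.3 and 171 CPM in Sham replicates 5 to 8. Efemp1, a fibulin of the matrix that fibroblasts also make, had 244, 56.6, 85.1 and 169 CPM in MI, against 155, 155, 128 and 199.9 CPM in Sham. In both genes MI replicate 1 was highest and MI replicate 2 lowest.

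Upk1b, a uroplakin of urothelium and mesothelium, had 33.2, 9.23, 18.8 and 51.15 CPM in MI and 26.6, 24.8, 22.8 and 47.2 CPM in Sham, with r of 0.92 to the index and 0.80 without MI replicate 2. Bcam, the third of the list by level and a laminin receptor also found in vessels, had r of -0.28 to the index, which was 0.017 without MI replicate 2. Its values were 23.4, 36.8, 32.3 and 27.9 CPM in MI against 30.6, 32.6, 33.1 and 41.8 CPM in Sham. None of the 10 passed at an adjusted p under 0.05 in edgeR. Rspo1, a secreted activator of Wnt signalling, had 5.13 ± 1.03 CPM in MI and 7.86 ± 1.55 CPM in Sham (SD, n = 4 each). Its groups did not overlap, as those of 4.55% of all tested genes did not, and on the log2 scale MI over Sham was -0.62 ± 0.20 (SE). Its edgeR p was 0.0101 before adjustment, a level under 0.05 that 8.14% of tested genes reached, and 0.600 adjusted over all genes. It was singled out after its values were seen.

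**Figure D4:**
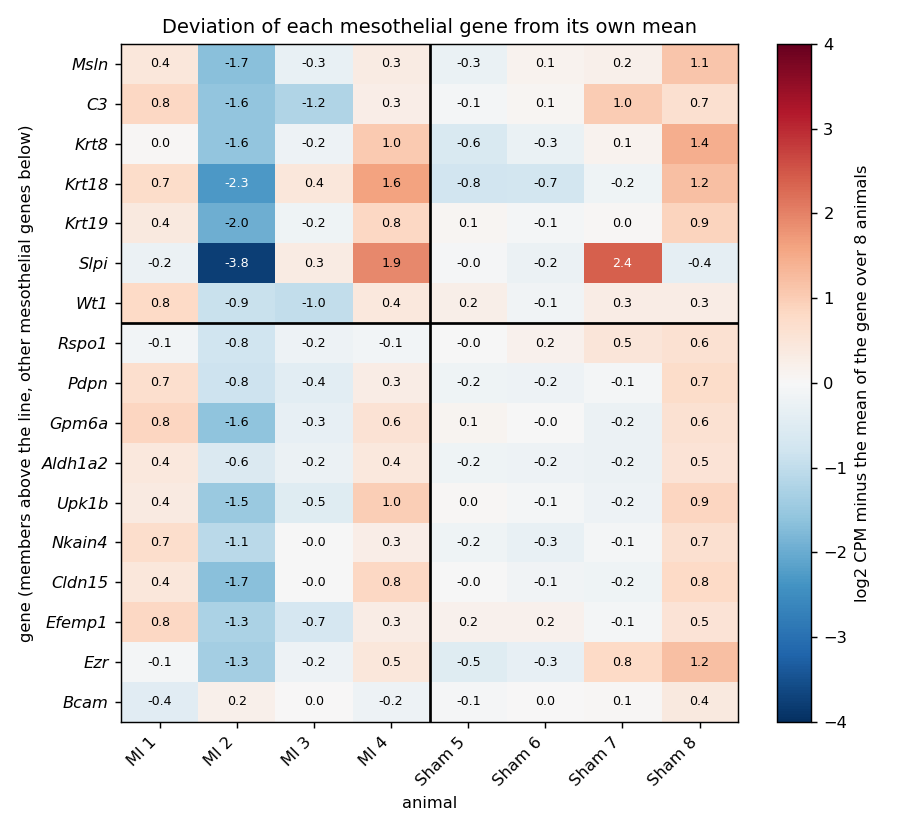
Log2 CPM of each gene minus its mean over the 8 animals (colour and number, no prior count), with MI animals left of Sham animals, members above the horizontal line and other mesothelial genes below it. The column of MI replicate 2 is below 0 for every gene except Bcam.

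Complement genes were followed as the pathway of C3. Of 28 listed, 26 had a row and 23 were tested, and 20, or 87.0%, had a positive r to the index, against 46.6% of all tested genes. Their median r was 0.60, and 0.46 without MI replicate 2, against -0.031 and 0.0046 over all tested genes. In MI replicate 2, 60.9% of them were lowest, against 10.3% of all tested genes. None passed in edgeR, at an adjusted p or at an unadjusted p under 0.05, with 8 fold changes above 0, 15 below, and a median of -0.12 in log2 units against -0.0070 over all genes tested. Cfb, factor B of the alternative pathway, had 165.5, 47.05, 123 and 253 CPM in MI replicates 1 to 4, against 127, 153, 156 and 253.5 CPM in Sham replicates 5 to 8, so MI replicate 4 and Sham replicate 8 led as they did for the keratins. Cfb is among the 3 of highest level in the list. The other two followed the index less closely, with r of 0.17 (0.046 without MI replicate 2) for Cd59, an inhibitor of the lytic complex on cell membranes, and -0.38 for Masp1, a protease of the lectin pathway. The terminal components C8a, C8b and C9 had 0 counts in every library. The complement list shares C1qa and C1qb with the macrophage list and Cfd with the adipocyte list, and the index itself includes C3.

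Complement genes were also among the genes most like the index in the whole table. The 10 with the highest r among genes of at least 1 CPM, the members aside, were Rabl5 (0.99), C2 (0.99), Serpinb1a (0.98), Ang1 (0.97), Slc26a3 (0.97), Cfb (0.97), Sat1 (0.96), Cnksr3 (0.96), C1s (0.96) and Npas2 (0.955). C2, Cfb and C1s encode proteases of complement activation, Serpinb1a an inhibitor of neutrophil proteases, Slc26a3 a chloride and bicarbonate exchanger, Sat1 an enzyme of polyamine breakdown and Npas2 a transcription factor of the circadian clock. C2 had 16.8, 6.48, 13.9 and 22.8 CPM in MI, against 14.1, 15.3, 20.5 and 19.2 CPM in Sham. Rabl5 and Ang1 lay close to the limit of 1 CPM, which is on the mean of the 8 animals. Rabl5 had 0.489 to 1.73 CPM and Ang1 0.550 to 1.475 CPM, so counting error weighs on their r. Each of the 10 was lowest in MI replicate 2, and without that animal their r lay between 0.83 and 0.98. They were picked as the highest of the table, so these values describe the 8 animals and were not tested. Their range from lowest to highest animal, 1.86-fold for Sat1 to 6.81-fold for Slc26a3, compares with 3.42-fold to 72.8-fold for the members.

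Other cell types that make keratins, C3 or Slpi were looked for by their own markers. Of 10 hepatocyte markers, Fga and Fgb had 0 counts in every library and Alb, albumin, 26 counts in MI replicate 4 and at most 8 elsewhere. Only Tf (37.2 to 130.3 CPM in MI and 99.45 to 138 CPM in Sham) and Cyp2e1 passed the filter, both of them also expressed outside liver. The summed level of that list was 39.7 to 139 CPM in MI and 105 to 146.5 CPM in Sham. Of 8 lung epithelial markers, the surfactant genes Sftpa1 and Sftpd had 0 counts and Sftpc and Sftpb at most 1 count in any library, and the sum was 4.03 to 5.74 CPM in MI and 2.95 to 6.98 CPM in Sham, mostly from Ager and Napsa. None of the 11 further keratin and epithelial genes with a row passed the filter, and Krt5, Krt15, Krt23 and Cldn7 had 0 counts. Krt14, a keratin of basal epidermis, had 8, 1, 3 and 1 counts in MI replicates 1 to 4, against 9, 24, 68 and 18 counts in Sham replicates 5 to 8. The sum of these genes was 0.346 to 1.78 CPM in MI and 1.32 to 3.93 CPM in Sham.

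Markers of other cell types of the muscle had lower median correlations with the index than the other mesothelial genes had. The median r was 0.51 for 7 fibroblast markers and 0.52 without MI replicate 2, and 0.51 for the 8 macrophage markers and 0.41 without that animal. It was 0.39 for 7 adipocyte markers and 0.20 without MI replicate 2. For 5 muscle fibre markers it was -0.024 and became -0.45 without that animal, and for 5 endothelial markers it was -0.23 and turned to 0.15.

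Among the genes of highest level in each list, the macrophage genes had r of 0.50 (Lyz2), 0.60 (C1qb) and 0.76 (Mrc1) over 8 animals, and 0.31, 0.54 and 0.69 without MI replicate 2. The fibroblast genes had 0.49 (Dcn), 0.097 (Lum) and 0.64 (Dpt), and 0.57, 0.31 and 0.52 without it. Of the adipocyte genes, Fabp4 had 0.11 and Cfd 0.62, against 0.27 and 0.24 without it, while Adipoq turned to -0.048 without it, with 0.39 over all 8. Of the endothelial genes, the 3 of highest level were below 0 over 8 animals, with -0.34 for Kdr, -0.16 for Pecam1 and -0.23 for Tie1. They were above 0 without MI replicate 2, with 0.13, 0.42 and 0.15. The rest of that list did not change sign, with -0.86 and -0.71 for Cdh5 and 0.32 and 0.39 for Cldn5. The muscle genes Acta1 and Ckm had 0.098 and 0.14 over 8 animals and -0.45 and -0.85 without it, while Mb had -0.675 and -0.72. None of these lists had a gene past an adjusted p under 0.05 in edgeR, and at an unadjusted p under 0.05, which 8.14% of all tested genes reached, they had 3, Lum, Dcn and Cd163.

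Fat markers stood high in MI replicate 4, where Adipoq, the adipocyte hormone adiponectin, was at 100.2 CPM, with 14.2 to 55.0 CPM in the other MI animals, against 14.6 to 51.95 CPM in Sham. The mean deviation of the adipocyte list was 1.13 log2 CPM in MI replicate 4 and -0.79 in Sham replicate 8, the animals with the highest keratin levels, and was lowest, at -0.81, in MI replicate 2, where the index of the lining was also lowest. Macrophage markers were lowest in that animal too, at -0.48. The tested hepatocyte markers Tf and Cyp2e1 stood at -0.93 there and at -1.08 in MI replicate 1, and the neutrophil marker S100a9 at -1.09 there and at -1.11 in Sham replicate 6. Summed, adipocyte markers gave 213 to 460.5 CPM in MI and 176 to 252 CPM in Sham, fibroblast markers 1712 to 2923 CPM in MI and 1503 to 2042 CPM in Sham, and endothelial markers 176 to 263.5 CPM in MI and 209.9 to 247 CPM in Sham. Of 6 neutrophil markers 1 was tested, S100a9, and their sum was 1.22 to 11.8 CPM in MI and 1.16 to 3.59 CPM in Sham. The part of these cells in the levels of the lining genes was not tested.

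**Figure D5:**
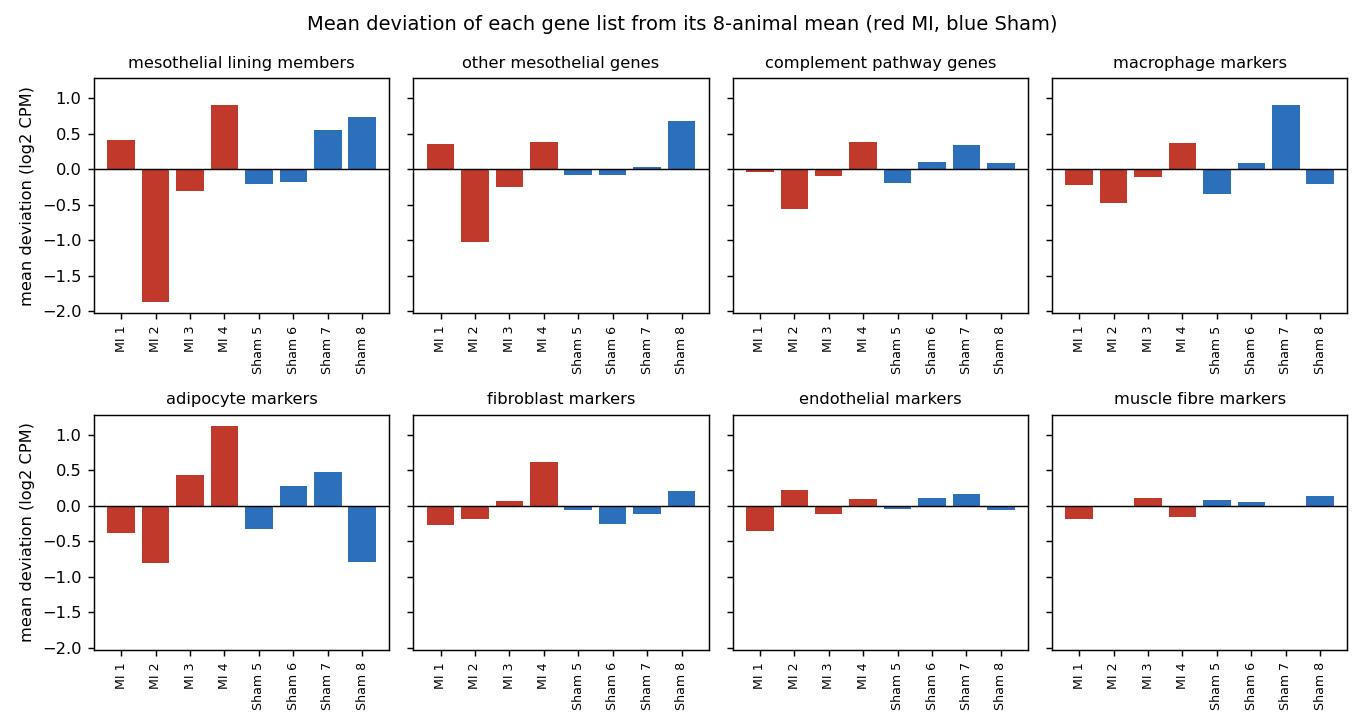
Mean deviation, in log2 CPM, of the tested genes of 8 lists from their own 8-animal means in each library, MI (red) left of Sham (blue). MI replicate 2 has -1.88 for the members and -1.03 for the other mesothelial genes, and is also the lowest animal for adipocyte markers (-0.81) and macrophage markers (-0.48), while its endothelial markers stand at 0.22 and its muscle fibre markers at -0.0048.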

How the data were processed

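RNA was isolated with TRI Reagent and libraries were made with SMARTer Ultra Low and KAPA Hyper kits, per the labels' protocols, which do not say whether strand was kept. The authors deposited raw counts, whole numbers of reads for each gene symbol with a column for each animal. The submitters' processing notes name bcl2fastq, STAR 2.5.0a, TopHat2, TopHat, Cufflinks and build rn5. What program counted the reads, and on which annotation, is not given in the sources used here. Reads shared by near-identical copies such as C4a and C4b, or by overlapping genes, cannot be divided.

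Groups came from the labels, which give no batch and no pairing. The edgeR test set the difference between MI and Sham against the spread between animals of a group. Nothing in the labels separates breeding or handling groups, so these cannot be told apart from that spread. Of 17055 rows, 25 had been turned into dates and stayed in the library sizes. The gene Adgre1 was read from its older symbol Emr1. RefSeq names and sequences are of GRCr8, and no file coordinates are given.

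Tests used edgeR 4.0.16 in R 4.3.3, on TMM-scaled counts of the 10522 genes kept by filterByExpr. P-values are two-sided, from its robust quasi-likelihood F test, adjusted after Benjamini and Hochberg over these genes, and called under 0.05. Log2 CPM had a prior count of 2. The procedure was tested on simulated data. The alternatives were RLE scaling, library totals, no filter, 1 CPM in 4 libraries, DESeq2 1.42.0, limma-voom (limma 3.58.1), the animal number range as a term, a prior count of 0.5, each member left out of the index, the index without C3, Slpi and Wt1, group means subtracted, and each library left out. The spread of each member without MI replicate 2 was added after seeing the data.

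The members and lists were chosen with earlier results of these data known. The text names all members, the 3 tested genes of highest level and any called gene of each other list, and the 10 genes of at least 1 CPM with the highest r to the index. Other genes named, among them Upk1b, Rspo1 and the defining markers at or near 0, were singled out after their values were seen.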

Additional observations from a re-analysis of the deposited data

Results flagged for a closer look

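Of 56 groups of 4 animals checked for a single far value (7 members, the index, 10 other mesothelial genes and the 10 genes most like the index, in MI and in Sham), 7 had a gap beside the extreme animal above Dixon's 95% limit, where chance gives about 1 in 20. Because the groups share animals and correlated genes, the 7 cannot be set against that rate. The values are in log2 CPM. Sham replicate 8 stood above the other Sham animals in 4 of them, Krt19 (5.403), Pdpn (5.02), Aldh1a2 (4.89) and Cldn15 (2.565). Sham replicate 7 stood above the others for Slpi (4.75), and Sham replicate 6 below the others for Wt1 (3.36). MI replicate 2 stood below the other MI animals for Rspo1 (1.91). The low values of MI replicate 2 for the members did not meet this limit.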

How the results depend on the processing

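The 6.85-fold range of the index, 2.78 on the log2 scale, lay between 2.54 and 3.02 under the other scalings, the other prior count and each choice of members. With each library left out it lay between 1.20, without MI replicate 2, and 2.79. The median r of the pairs lay between 0.47, without MI replicate 2, and 0.82 with each library left out, and was 0.71 with group means subtracted. The count of called genes was 0 in edgeR, 0 with limma-voom, 14 with DESeq2, and 0 to 1 with each library left out, the 1 being Alas2 without MI replicate 1 and Zp2 without MI replicate 3, and 0 members were called in any setting. With each library left out, log2 fold changes spanned -0.79 to 0.28 for Krt8, -0.565 to 0.13 for Krt19, -1.56 to 0.71 for Slpi and -0.54 to 0.092 for Wt1, with reversals also at 0.0069 (Krt8) and 0.050 (Krt19). Msln and C3 stayed below 0 and Krt18 above 0 in every alternative run, but their size moved, from -0.71 (without MI replicate 1) to -0.13 (without Sham replicate 8) for Msln, from -1.13 (without MI replicate 1) to -0.30 (without MI replicate 2) for C3 and from 0.022 (without MI replicate 4) to 1.12 (without Sham replicate 8) for Krt18. No paired analysis was possible because the labels give no pairing of MI with Sham animals. The difference of the index between MI and Sham lay between -0.81 and 0.11 with each library left out. The causes of these changes were not tested. Counting error weighed most on Slpi and Krt18 in MI replicate 2, where they had 6 and 14 counts in a library of 15944048.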
